A study of Mus musculus with 16 samples.

Results

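The 9 enzymes described here are the citrate synthase gene Cs, the isocitrate dehydrogenase genes Idh2 and Idh3a, the oxoglutarate dehydrogenase gene Ogdh, the succinyl-CoA ligase genes Suclg1, Suclg2 and Sucla2, the fumarate hydratase gene Fh1 and the malate dehydrogenase gene Mdh2. They were taken by name from the probe set annotation, and the brightest probe set stood for a gene with several. All 9 were measured, out of 19938 genes. The tricarboxylic acid cycle runs in the mitochondrial matrix, where it oxidizes acetyl-CoA and hands the electrons to the respiratory chain. Succinyl-CoA is one of its intermediates. It is made inside the cycle from oxoglutarate, and it also enters from propionate through methylmalonyl-CoA mutase, the enzyme that the mutant mice lack in the liver. In liver the cycle also receives and gives off carbon for glucose, amino acid, heme and fatty acid synthesis.

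Livers of 16 male mice aged 4 months were hybridized, 1 array each. Every mouse carried TgINS-MCK-Mut, a transgene whose MCK promoter gives the mutase to muscle. The comparison is between Mut -/- mice and Mut +/- mice on that transgene, so the controls were heterozygous and not wild type. Each genotype was sampled on a normal diet without fasting and after a fast, in 4 groups of 4 mice; the fast lasted 12 hours in heterozygotes and 8 to 12 hours in mutants, so genotype and length of fast cannot be told apart in the fasted groups.

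Values are the authors' log2 expression values, and differences are given as log2 ± standard error of a limma fit across all genes, with 4 arrays per group. A gene is called at an adjusted p under 0.05, and it is said to rise or fall only then. Mmut, the mutated gene, read 7.87 to 8.33 in unfasted and 7.85 to 8.33 in fasted mutants, and 9.66 to 9.89 and 9.77 to 10.10 in the heterozygous groups, so no mutant array overlapped a heterozygous one. The hepatocyte markers were bright on all arrays, with a mean of the 6 listed genes between 12.89 and 13.39, and none of the 6 was called in any comparison. In the fasted state Alb, Ttr and Cyp2e1 still lay lower on all mutant than on all heterozygous arrays. Their differences were -0.097, -0.074 and -0.055 (adjusted p = 0.13, 0.18 and 0.29), and 1 of the 6 had a positive difference there. Unfasted mutant replicate 1 stood apart through pancreatic acinar transcripts. The mean of 8 of 10 listed acinar genes reached 11.30 there, against 6.82 to 7.10 in the other 3 groups. Without that array the same enzymes were called in the genotype comparisons; its effect on the fasting comparison of mutants is given there.

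The first question was whether the cycle's enzymes differ between mutant and heterozygous liver. In unfasted mutants 2 of the 9 rose, Idh2 and Mdh2, none fell and 7 did not pass, where 4.25% of all genes rose and 3.69% fell. In fasted mutants 4 of the 9 rose, Cs, Idh2, Idh3a and Mdh2, and none fell, against 8.62% and 5.01% of all genes. Averaged over both feeding states the same 4 rose and none fell, against 12.3% and 8.68%. The median difference of the 9 was 0.18 unfasted, 0.20 fasted and 0.16 over both states, while the medians of all genes were 0.0052, -0.022 and -0.011. The 9 enzymes are bright, with means of 10.31 to 11.83, while all genes include dim ones. For genes above the median brightness the medians were -0.0035, 0.046 and 0.013. A fit of those genes alone called 1573, 2246 and 3332 in either direction, against 1584, 2716 and 4176 of all 19938 genes. That fit holds only the genes above the median, so its counts are larger shares of the genes fitted. The shares of all genes are therefore a low yardstick for bright genes, here and in the counts below. The 3 genotype comparisons are not independent of each other, since the average uses the arrays of the other 2. The 2 enzymes that rose in both states had no overlap of mutant with heterozygous arrays in either, as 2 of 9 in the unfasted state, against 6.16% of all genes that lay higher in that way. In the fasted state the arrays of 4 of 9 lay apart and higher, those of Cs, Idh2, Ogdh and Mdh2, against 12.8% of all genes. These enzymes were measured on the same arrays and are not replicates of a condition. In whole liver a change in the share of cells and a change of RNA per cell cannot be told apart.

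**Figure D1:**
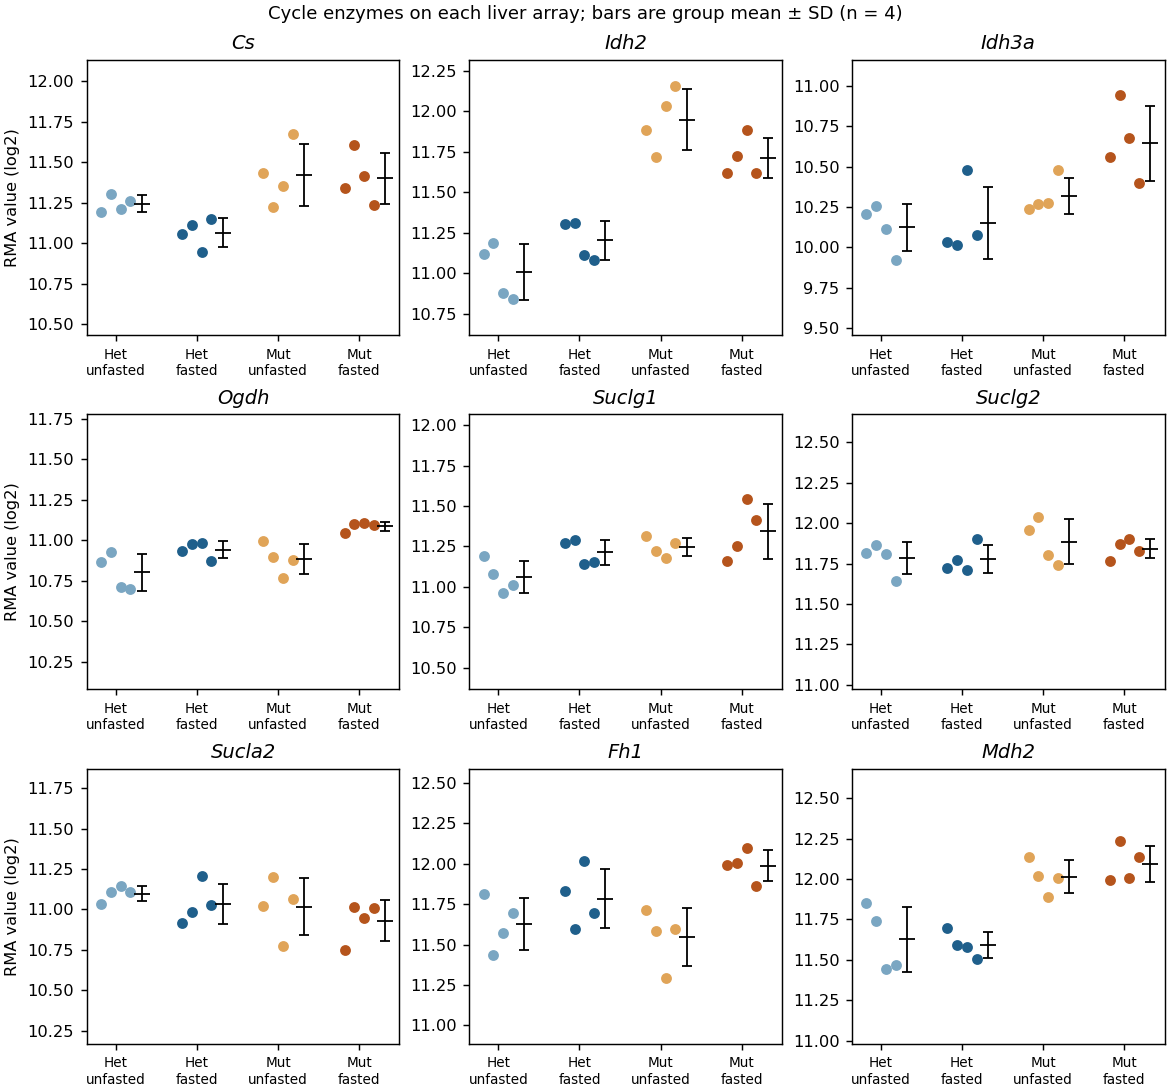
Log2 expression value of the 9 cycle enzymes on each of the 16 arrays, in panels that each span the same height. Points are single livers in the 4 groups, and black bars are group mean ± SD with 4 arrays each. The Idh2 and Mdh2 points of mutants lie above all heterozygous points, with Idh2 at 11.72 to 12.16 in unfasted mutants and 10.84 to 11.18 in unfasted heterozygotes, while the groups of Suclg2 and Sucla2 overlap.

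Idh2 encodes the mitochondrial isocitrate dehydrogenase that uses NADP and so yields NADPH in the matrix. In unfasted heterozygotes it read 11.12, 11.18, 10.88 and 10.84, and in unfasted mutants 11.89, 11.72, 12.04 and 12.16. Every unfasted mutant array lay above every heterozygous one. The difference was 0.94 ± 0.10 (1.92-fold, adjusted p = 0.00012). After the fast Idh2 read 11.30, 11.31, 11.11 and 11.08 in heterozygotes and 11.62, 11.73, 11.89 and 11.62 in mutants, again without overlap. The rise was 0.51 ± 0.10 (1.42-fold, adjusted p = 0.0053). In order of group mean Idh2 ran from unfasted heterozygotes at 11.01 ± 0.17 (SD, n = 4) through fasted heterozygotes at 11.20 ± 0.12 and fasted mutants at 11.71 ± 0.13 to unfasted mutants at 11.95 ± 0.19. The 2 heterozygous groups overlapped in their arrays, as did the 2 mutant groups, so the order within a genotype did not exceed the spread. Idh2 kept its call without any 1 of the 16 arrays, with adjusted p up to 0.00068 unfasted and 0.021 fasted.

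Mdh2 encodes mitochondrial malate dehydrogenase, which closes the cycle by turning malate into oxaloacetate and also takes part in the malate-aspartate shuttle. It read 11.85, 11.74, 11.44 and 11.47 in unfasted heterozygotes and 12.14, 12.02, 11.89 and 12.00 in unfasted mutants. The lowest mutant and the highest heterozygous array were close but did not overlap. The rise was 0.39 ± 0.090 (1.31-fold, adjusted p = 0.016). This call was lost without unfasted heterozygous replicate 3 or 4, the 2 lowest arrays of their group, with adjusted p up to 0.063, and in a fit of only the 8 arrays compared. In the fasted state Mdh2 read 11.70, 11.59, 11.58 and 11.50 in heterozygotes and 11.99, 12.23, 12.01 and 12.14 in mutants. All fasted mutant arrays lay above all fasted heterozygous ones, and the rise was 0.50 ± 0.090 (1.41-fold, adjusted p = 0.0027). Over both states Idh2 rose by 0.73 ± 0.073 (adjusted p = 1.2e-05) and Mdh2 by 0.44 ± 0.064 (adjusted p = 0.00020). For these 2 genes all 8 mutant arrays lay above all 8 heterozygous ones, as 2.18% of all genes did.

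Because Idh2 and Mdh2 were the 2 enzymes that rose in both states, the 250 bases before a RefSeq start of each (GRCm38.p6) are shown, 5′ to 3′ on the gene's strand, with capitals for any match to the motifs searched. The Idh2 stretch is chr7:80115351-80115600 on the minus strand and the Mdh2 stretch is chr5:135778399-135778648 on the plus strand.
Idh2: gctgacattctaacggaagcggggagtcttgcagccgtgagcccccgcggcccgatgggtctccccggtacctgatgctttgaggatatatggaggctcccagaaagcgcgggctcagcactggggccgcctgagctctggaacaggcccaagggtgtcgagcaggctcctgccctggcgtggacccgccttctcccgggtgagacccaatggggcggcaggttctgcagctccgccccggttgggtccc
Mdh2: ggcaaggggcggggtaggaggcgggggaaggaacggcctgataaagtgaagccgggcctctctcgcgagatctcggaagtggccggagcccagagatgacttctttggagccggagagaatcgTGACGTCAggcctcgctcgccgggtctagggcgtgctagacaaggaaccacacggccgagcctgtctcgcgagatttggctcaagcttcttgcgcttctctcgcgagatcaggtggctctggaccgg
Windows from 250 bases before to just past a start were searched on both strands for the NRF1 motif, the site AAGGTCA of estrogen-related receptors, the ETS motif CCGGAAG, the cyclic AMP response element TGACGTCA and the amino acid response motif TGATGNAA. The windows of 8 of the 9 genes were in the table, all but Idh3a. The Idh2 window held none of the 5 motifs. The Mdh2 window held 1, the element TGACGTCA, which 1.79% of all windows hold and which also lies in windows of Ogdh. The NRF1 motif was found for Sucla2 (4.6% of all windows) and AAGGTCA in 1 Ogdh window (4.72%). None of the 8 genes held CCGGAAG or TGATGNAA, which 8.86% and 3.97% of all windows hold. These are matches of letters, and no binding was measured.

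Cs encodes citrate synthase, which joins acetyl-CoA to oxaloacetate at the entry of the cycle. In the unfasted state it read 11.19, 11.31, 11.21 and 11.26 in heterozygotes and 11.44, 11.22, 11.35 and 11.67 in mutants, which overlapped, and the difference of 0.18 ± 0.092 did not pass (adjusted p = 0.28). After the fast it read 11.06, 11.11, 10.94 and 11.15 in heterozygotes and 11.34, 11.61, 11.42 and 11.24 in mutants, without overlap. Cs rose by 0.34 ± 0.092 (1.26-fold, adjusted p = 0.025). The fasted call was lost without fasted mutant replicate 2, fasted heterozygous replicate 1 or fasted heterozygous replicate 3, with 0.088 as the highest adjusted p. Over both states the rise was 0.26 ± 0.065 (adjusted p = 0.010), a call kept without any 1 array.

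Idh3a encodes the catalytic alpha subunit of the isocitrate dehydrogenase that uses NAD and drives the cycle itself. It read 10.21, 10.25, 10.11 and 9.92 in unfasted heterozygotes and 10.24, 10.27, 10.27 and 10.48 in unfasted mutants, a difference of 0.19 ± 0.12 that did not pass (adjusted p = 0.40). In the fasted groups it read 10.03, 10.01, 10.48 and 10.07 in heterozygotes and 10.56, 10.94, 10.67 and 10.40 in mutants. Heterozygous replicate 3 lay above mutant replicate 4, so these groups overlapped, and the other 3 heterozygous arrays lay below all mutants. Idh3a rose by 0.49 ± 0.12 (1.41-fold, adjusted p = 0.015), a call lost without fasted mutant replicate 2 (adjusted p = 0.053). Over both states it rose by 0.34 ± 0.086 (adjusted p = 0.010). Of the partner subunits of the same complex, Idh3g was called in fasted mutants, at 0.19 ± 0.054 (adjusted p = 0.029), and over both states, at 0.12 ± 0.038 (adjusted p = 0.033), but each call was lost without any 1 of several arrays, with adjusted p up to 0.079 and 0.073. Idh3b was 0.11 ± 0.040 over both states and did not pass (adjusted p = 0.056).

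**Figure D2:**
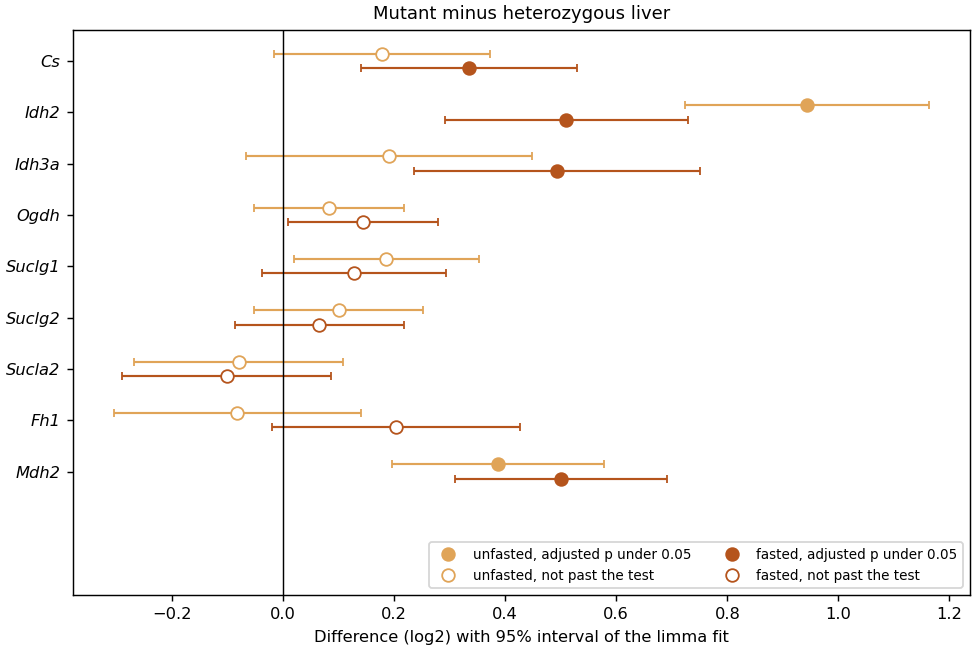
Difference between mutant and heterozygous liver for each enzyme in log2 units, with the 95% interval of the limma fit, separately for unfasted and fasted mice. Filled points have an adjusted p under 0.05. Idh2 has the rightmost unfasted point at 0.94, Idh2, Idh3a and Mdh2 lie near one another when fasted at 0.51, 0.49 and 0.50, and the intervals of Suclg2 and Sucla2 include 0 in both states.

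With all arrays, none of the 4 genes at the steps on either side of succinyl-CoA was called between genotypes. Ogdh encodes the first subunit of the oxoglutarate dehydrogenase complex, which makes succinyl-CoA within the cycle. It read 10.87, 10.93, 10.71 and 10.70 in unfasted heterozygotes and 10.99, 10.90, 10.77 and 10.88 in unfasted mutants, which overlapped. In the fasted state it read 10.93, 10.98, 10.98 and 10.87 in heterozygotes and 11.05, 11.10, 11.11 and 11.09 in mutants, where all mutant arrays were higher. The differences of 0.082 ± 0.064 and 0.14 ± 0.064 did not pass (adjusted p = 0.52 and 0.14). Over both states Ogdh was 0.11 ± 0.045 higher, which did not pass either (adjusted p = 0.089), and it was called with array weights, a second quantile normalization, without unfasted mutant replicate 3 or without unfasted heterozygous replicate 2.

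Succinyl-CoA ligase turns succinyl-CoA into succinate and pairs a shared alpha subunit, encoded by Suclg1, with a beta subunit that fixes the nucleotide, Suclg2 for GTP or Sucla2 for ATP. Suclg1 read 11.19, 11.08, 10.96 and 11.01 in unfasted heterozygotes, 11.31, 11.22, 11.18 and 11.27 in unfasted mutants, 11.27, 11.29, 11.14 and 11.15 in fasted heterozygotes and 11.16, 11.25, 11.54 and 11.41 in fasted mutants. The genotype groups overlapped in both states, and the differences of 0.19 ± 0.078 unfasted (adjusted p = 0.17) and 0.13 ± 0.078 fasted (adjusted p = 0.28) did not pass. Over both states Suclg1 was 0.16 ± 0.055 higher, which did not pass (adjusted p = 0.056), and it was called with array weights, a second quantile normalization, no variance trend, only the brighter genes, without unfasted heterozygous replicate 1 or without fasted mutant replicate 1. Suclg2, the GTP-specific beta subunit, read 11.82, 11.87, 11.81 and 11.64 in unfasted heterozygotes, 11.96, 12.04, 11.80 and 11.74 in unfasted mutants, 11.72, 11.78, 11.71 and 11.90 in fasted heterozygotes and 11.77, 11.87, 11.90 and 11.83 in fasted mutants. Sucla2, the ATP-specific beta subunit, read 11.03, 11.11, 11.14 and 11.11 in unfasted heterozygotes, 11.02, 11.20, 10.78 and 11.07 in unfasted mutants, 10.92, 10.98, 11.20 and 11.03 in fasted heterozygotes and 10.75, 11.02, 10.95 and 11.01 in fasted mutants. The arrays of both genes overlapped between genotypes in both states.

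Over both states the 95% interval of the genotype difference was -0.025 to 0.19 for Suclg2 (difference 0.082, adjusted p = 0.28) and -0.22 to 0.041 for Sucla2 (difference -0.091, adjusted p = 0.33). Both intervals include 0. Suclg2 has 2 probe sets of nearly equal brightness, listed with the same transcripts. The second read 11.84, 11.89, 11.79 and 11.66 in unfasted heterozygotes, 12.03, 12.06, 11.80 and 11.71 in unfasted mutants, 11.66, 11.72, 11.72 and 11.91 in fasted heterozygotes and 11.77, 11.90, 11.86 and 11.82 in fasted mutants. With the mean of both, no comparison of Suclg2 was called either.

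Fh1 encodes fumarate hydratase, which makes malate from fumarate. It read 11.81, 11.43, 11.57 and 11.70 in unfasted heterozygotes and 11.71, 11.58, 11.29 and 11.59 in unfasted mutants, and 11.83, 11.60, 12.02 and 11.69 in fasted heterozygotes and 11.99, 12.00, 12.10 and 11.86 in fasted mutants. The genotypes overlapped in both states. The differences of -0.082 ± 0.11 unfasted and 0.20 ± 0.11 fasted did not pass (adjusted p = 0.73 and 0.20).

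A list of other genes of the cycle gave 14 that were measured. In unfasted mutants none of the 14 passed. In fasted mutants and over both states 1 rose and 1 fell, the first being Idh3g. These counts are near the shares of all genes that rose and fell, 8.62% and 5.01% fasted and 12.3% and 8.68% over both states. The gene that fell was Dhtkd1, which encodes the oxoadipate dehydrogenase related to Ogdh in lysine breakdown. It read 10.73, 10.51, 11.16 and 10.94 in fasted heterozygotes and 9.91, 9.66, 10.69 and 10.05 in fasted mutants, which overlapped through mutant replicate 3. Its difference was -0.76 ± 0.20 (adjusted p = 0.021), a call that 4 of the arrays, left out singly, each ended (highest adjusted p = 0.075). None of the 4 succinate dehydrogenase subunits or their 4 assembly factors was called, and their differences over both states ran from -0.16 for Sdhb to 0.18 for Sdhaf1. The median of the 14 over both states was 0.028, beside 0.16 for the 9 enzymes and -0.011 for all genes.

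Cytosolic counterparts of the cycle's enzymes, where called between genotypes, were lower in mutants. Of 6 listed genes 4 fell over both states and none rose, against 8.68% and 12.3% of all genes. Unfasted, 1 of 6 fell (3.69% of all genes), and fasted none did (5.01%). Mdh1, the cytosolic malate dehydrogenase, read 12.22, 12.11, 12.29 and 12.33 in unfasted heterozygotes, 12.13, 12.00, 11.82 and 11.99 in unfasted mutants, 12.27, 12.17, 12.17 and 12.08 in fasted heterozygotes and 11.71, 11.95, 12.03 and 12.07 in fasted mutants. Within the fasted state all mutants lay below all heterozygotes, while unfasted mutant replicate 1 reached the heterozygous range. It fell by 0.24 ± 0.058 over both states (adjusted p = 0.0075), a call kept without any 1 array and under both other scalings of the arrays. Idh1, the cytosolic NADP-dependent isocitrate dehydrogenase, fell by 0.10 ± 0.036 (adjusted p = 0.048). Aco1, the cytosolic aconitase and iron regulatory protein, fell by 0.16 ± 0.053 (adjusted p = 0.039). Acly, which splits citrate for lipid synthesis, fell by 0.33 ± 0.11 (adjusted p = 0.043). The calls of Idh1, Aco1 and Acly were each lost without any 1 of 10 or more arrays, with adjusted p up to 0.099, 0.082 and 0.083. Those of Idh1 and Aco1 were also lost in a fit with a block for replicate number, and that of Idh1 under a second quantile normalization. Me1 and Got1 were not called between genotypes, at -0.26 and -0.28 unfasted and 0.32 and 0.50 fasted. Unfasted, the gene that fell was Acly, by 0.66 ± 0.16 (adjusted p = 0.018), a call lost with only the 8 arrays compared and without unfasted heterozygous replicate 3 or 4 (adjusted p up to 0.055). Fasted, Acly differed by -0.0071 ± 0.16 (adjusted p = 0.98), so its fall over both states came from the unfasted groups.

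Within each array the log2 value of Mdh2 minus that of Mdh1 ran from -0.86 to -0.37 in unfasted and -0.59 to -0.58 in fasted heterozygotes, and from 0.0089 to 0.068 in unfasted and -0.026 to 0.28 in fasted mutants. No mutant array overlapped a heterozygous one. For Idh2 minus Idh1 the ranges were -1.84 to -1.45 and -1.37 to -1.03 in heterozygotes and -0.91 to -0.29 and -0.79 to -0.42 in mutants, again apart. These differences show unequal change of the paired genes. Their sign is not a comparison of amounts, since probe sets differ in brightness, and no test was made of them. Idh2 and Mdh2 by themselves already lay apart between genotypes. Of the other pairs taken, Idh2 minus Idh3a lay apart unfasted, at 0.76 to 0.93 in heterozygotes and 1.45 to 1.76 in mutants. Fasted it overlapped, at 0.63 to 1.30 and 0.78 to 1.22. The pairs among Suclg1, Suclg2 and Sucla2 overlapped between genotypes in both states.

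**Figure D3:**
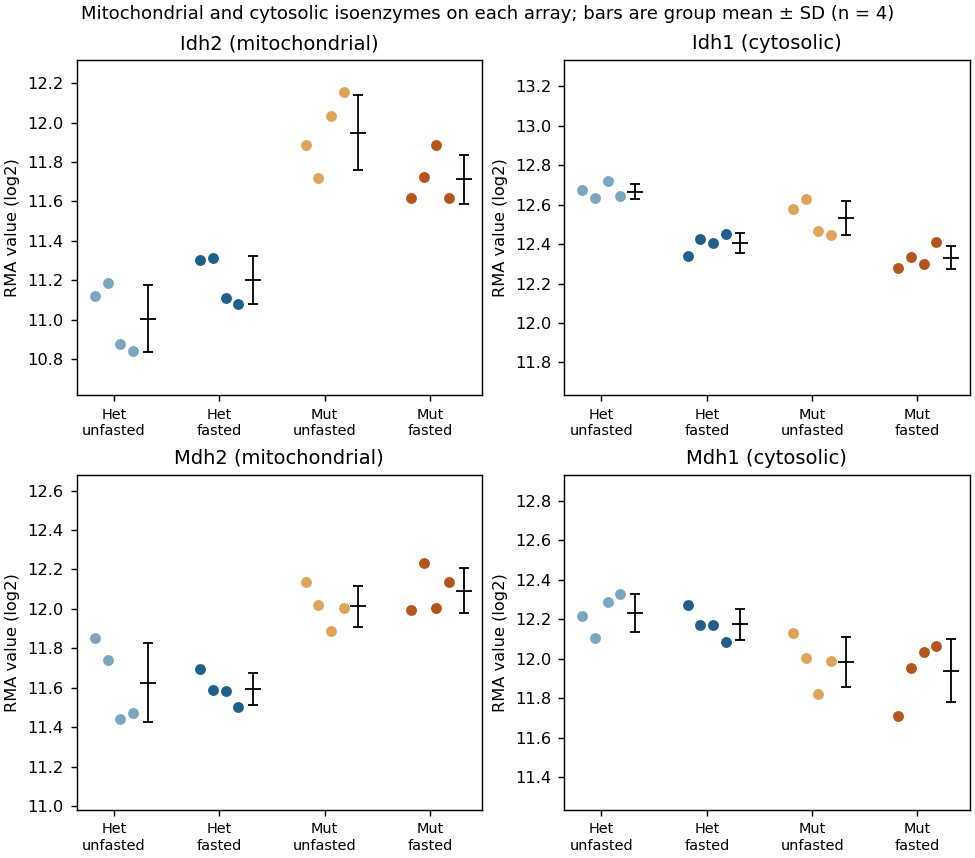
Log2 expression value of the mitochondrial genes Idh2 and Mdh2 and their cytosolic counterparts Idh1 and Mdh1 on each of the 16 arrays, with group mean ± SD as black bars (4 arrays per group). Mdh2 is higher in both mutant groups, with means of 12.01 and 12.09 against 11.63 and 11.59, and Mdh1 is lower in both, at 11.98 and 11.94 against 12.23 and 12.18.

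**Figure D4:**
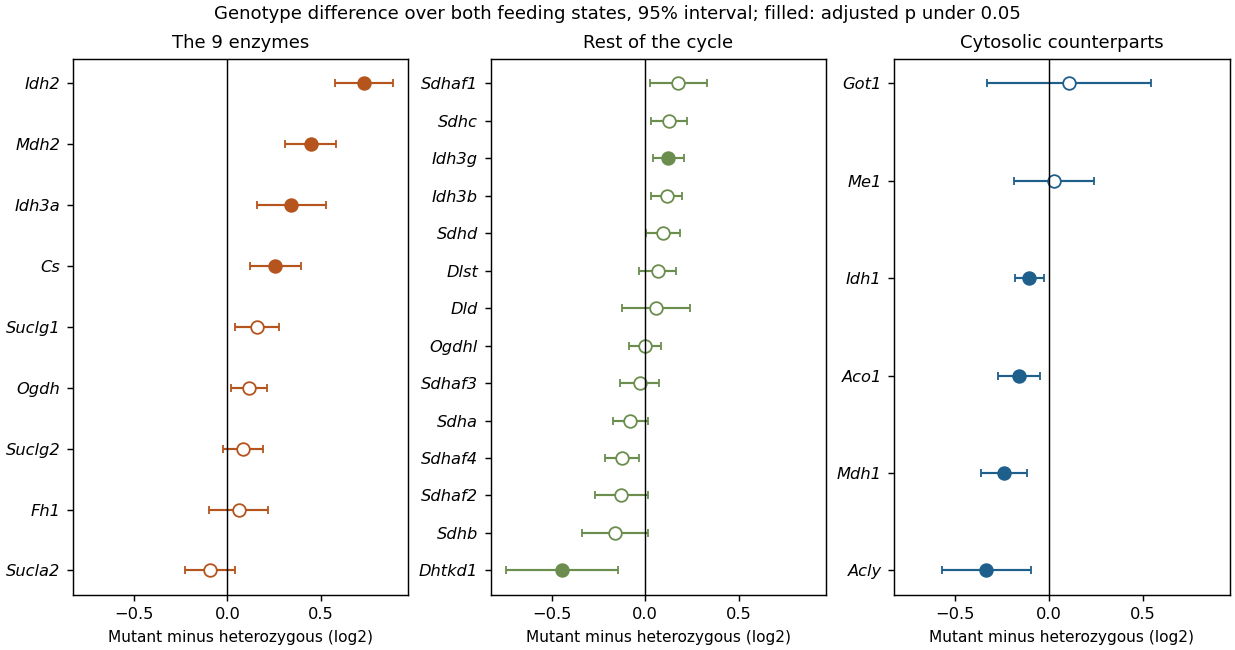
Genotype difference over both feeding states in log2 units with its 95% interval, for the 9 enzymes, 14 other genes of the cycle and 6 cytosolic counterparts, each panel sorted by size. Filled points have an adjusted p under 0.05. The 4 filled points of the 9 enzymes lie right of 0, from 0.26 for Cs to 0.73 for Idh2, and the 4 filled cytosolic points lie left of it, from -0.33 for Acly to -0.10 for Idh1.

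Among 10 listed genes tied to succinyl-CoA outside the cycle, 3 fell and none rose in unfasted mutants, and 3 fell and 1 rose in fasted ones. Of all genes 3.69% fell and 4.25% rose unfasted, and 5.01% fell and 8.62% rose fasted. The list includes Pcca, Pccb and Mcee of the propionate route upstream of the mutase, and Sirt5, which do not themselves make or use succinyl-CoA. Mmut itself is one of the 3 that fell in each state. Pcca, a subunit of the propionyl-CoA carboxylase upstream of the mutase, fell by 0.40 ± 0.11 unfasted (adjusted p = 0.040, lost without any 1 of 5 arrays) and by 0.36 ± 0.079 over both states (adjusted p = 0.0045). Alas1 and Alas2 encode the housekeeping and the erythroid aminolevulinate synthase, which condense succinyl-CoA with glycine for heme. Alas2 read 10.65, 10.44, 10.91 and 10.78 in unfasted heterozygotes and 9.42, 9.45, 8.70 and 10.03 in unfasted mutants, and after the fast 10.17, 10.41, 10.17 and 10.71 in heterozygotes and 8.03, 8.36, 9.98 and 8.95 in mutants. Mutants were lower without overlap in both states. Alas2 fell by 1.30 ± 0.33 (adjusted p = 0.025, lost without any 1 of 4 arrays) unfasted and fell by 1.53 ± 0.33 fasted (adjusted p = 0.0075). Alas1 read 12.13, 12.36, 11.68 and 12.14 in fasted heterozygotes and 12.90, 12.70, 12.63 and 12.87 in fasted mutants, without overlap. It rose by 0.70 ± 0.18 (adjusted p = 0.017), a call lost without fasted heterozygous replicate 3, the lowest of its group (adjusted p = 0.054). Sugct, the glutarate CoA-transferase that takes CoA from succinyl-CoA, fell by 0.39 ± 0.10 in fasted mutants (adjusted p = 0.023, lost without any 1 of 4 arrays). Acot4, a peroxisomal thioesterase of succinyl-CoA, rose over both states by 0.67 ± 0.18 (adjusted p = 0.016). Sirt5, the mitochondrial desuccinylase, showed -0.00061 ± 0.047 over both states (95% interval -0.10 to 0.10).

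Genes at the entry points of pyruvate and glutamate gave 1 rise among 9 unfasted (4.25% of all genes) and 3 fasted (8.62%), with no fall. Gls2, also listed, was not used here. Pck2, the mitochondrial phosphoenolpyruvate carboxykinase, rose by 0.50 ± 0.094 unfasted (adjusted p = 0.0051) and 0.32 ± 0.094 fasted (adjusted p = 0.035), and the fasted call was lost under both other scalings. Me2, the mitochondrial malic enzyme, rose by 0.45 ± 0.083 in the fasted state (adjusted p = 0.0031). Dlat, the transacetylase of pyruvate dehydrogenase, was called at 0.24 ± 0.075 there (adjusted p = 0.044) and lost that call under both other scalings, in a fit of only the 8 arrays compared and without any 1 of 10 arrays. Among 6 carriers of cycle intermediates 1 rose in fasted mutants, where 8.62% of all genes did, and none was called unfasted. That 1 was the oxoglutarate carrier Slc25a11 at 0.30 ± 0.081 (adjusted p = 0.024, lost without any 1 of 5 arrays). Mpc2 was not used here. Mpc1, the pyruvate carrier subunit, rose over both states by 0.21 ± 0.065 (adjusted p = 0.029), which was lost with arrays centred on a common median and without any 1 of 8 arrays.

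A list of genes of mitochondrial import, chaperones, channels and ATP synthase was set beside the enzymes. Their RNA is not a measure of mitochondrial content. Of the listed genes all but Phb1 were measured, 13 of 14. Of these 2 rose unfasted (4.25% of all genes), 6 fasted (8.62%) and 8 over both states (12.3%), and none fell. The other 11, 7 and 5 did not pass. Over both states those 5 were Hspe1, Vdac3, Tfam, Vdac1 and Atp5b, with differences of 0.16, 0.16, 0.11, 0.099 and 0.082. Hspa9, the matrix chaperone mortalin, rose by 0.39 ± 0.091 unfasted (adjusted p = 0.015, lost without unfasted heterozygous replicate 3) and 0.51 ± 0.091 fasted (adjusted p = 0.0025). In fasted mutants Tomm20, a receptor of the outer membrane import pore, rose by 0.48 ± 0.12, the channel gene Vdac2 by 0.45 ± 0.088 and Timm44, of the inner membrane import motor, by 0.40 ± 0.078 (adjusted p = 0.017, 0.0046 and 0.0040); that of Tomm20 was lost without fasted mutant replicate 2. Phb2, a prohibitin of the inner membrane, rose by 0.19 ± 0.046 unfasted (adjusted p = 0.018), which was lost without unfasted heterozygous replicate 3 or 4, with only the 8 arrays compared and with arrays centred on a common median. The medians over both states were 0.16 for this list and 0.16 for the 9 enzymes. Whether the enzymes changed relative to mitochondrial content was not tested.

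Markers of other liver cells moved with genotype too. Of 8 endothelial genes 5 rose unfasted, 6 fasted and 8 over both states. Of 9 macrophage genes 0 rose unfasted, 8 fasted and 9 over both states, and of 8 stellate and fibroblast genes 5, 2 and 6 did. The shares of all genes that rose were 4.25%, 8.62% and 12.3%, and of those that fell 3.69%, 5.01% and 8.68%. Of 5 cholangiocyte genes none rose, and 1 fell fasted and over both states, Sox9, by 0.37 ± 0.088 over both states (adjusted p = 0.0074). Of 6 lymphocyte genes none was called unfasted or over both states and 1, Ms4a1, rose fasted, at 0.41 ± 0.10 (adjusted p = 0.018). None of 8 acinar, 3 adipose or 4 skeletal muscle genes was called. The mean of the macrophage genes ran from 8.77 to 9.29 in fasted heterozygotes and from 9.54 to 9.92 in fasted mutants, and that of the endothelial genes from 9.41 to 9.61 and from 9.90 to 10.16. Unfasted, the macrophage mean was 8.75 to 9.33 and 9.06 to 9.70, and the endothelial mean 9.25 to 9.62 and 9.75 to 10.10, in heterozygotes and mutants. The stellate and fibroblast mean was 8.76 to 8.89 and 9.14 to 9.33 unfasted, and 8.72 to 8.81 and 8.91 to 9.15 fasted. The part of these cells in the enzymes' differences was not tested.

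The next question was how the enzymes respond to the fast. In heterozygous liver none of the 9 was called, where 0.732% of all genes rose and 0.838% fell. Their differences ran from -0.18 for Cs to 0.20 for Idh2, with a median of 0.025. The fasted heterozygous arrays of Cs all lay below the unfasted ones, as 5.11% of all genes did, but the difference of -0.18 ± 0.092 did not pass (adjusted p = 0.48). Of the 6 cytosolic genes 3 fell in these livers and none rose. Acly fell by 1.38 ± 0.16 (adjusted p = 0.00056), and Idh1 by 0.26 ± 0.051 (adjusted p = 0.015, lost without unfasted replicate 3 or fasted replicate 1). The malic enzyme gene Me1 fell by 0.66 ± 0.14 (adjusted p = 0.027, lost without any 1 of 4 arrays). The citrate carrier Slc25a1 fell by 0.33 ± 0.058 (adjusted p = 0.0095). Pdhb, a subunit of pyruvate dehydrogenase, was called at -0.52 ± 0.12 (adjusted p = 0.042), a call lost with arrays centred on a common median and without any 1 of 11 arrays.

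In mutant liver 1 of the 9 was called as higher after the fast, Fh1, where 2.33% of all genes rose and 1.02% fell. Fh1 went from 11.71, 11.58, 11.29 and 11.59 to 11.99, 12.00, 12.10 and 11.86, without overlap. The rise was 0.44 ± 0.11 (1.36-fold, adjusted p = 0.032). It was lost without any 1 of 6 arrays, which were unfasted mutant replicates 2, 3 and 4 and fasted mutant replicates 1, 2 and 3 (adjusted p up to 0.081), and in a fit of only these 8 arrays. Ogdh, 10.99, 10.90, 10.77 and 10.88 before and 11.05, 11.10, 11.11 and 11.09 after the fast, was also higher on all fasted arrays, so that 2 of 9 lay apart against 5.49% of all genes. Its difference of 0.20 ± 0.064 did not pass (adjusted p = 0.087) with all arrays and was called at an adjusted p = 0.037 without unfasted mutant replicate 1, the array with acinar transcripts. Idh3a, at 0.33 ± 0.12, and Idh2, at -0.24 ± 0.10, did not pass (adjusted p = 0.14 and 0.19). Of the 6 cytosolic genes 1 rose and 2 fell. Got1, the aspartate aminotransferase, rose by 1.29 ± 0.29 (adjusted p = 0.027, lost without any 1 of 5 arrays), and Acly fell by 0.72 ± 0.16 (adjusted p = 0.023, lost without any 1 of 3 arrays and with only the 8 arrays compared). Of the listed genes of mitochondrial import, chaperones, channels and ATP synthase, Tomm20 was called at 0.46 ± 0.12 (adjusted p = 0.048). This call was lost under both other scalings, in a fit of only the 8 arrays compared and without any 1 of 15 arrays. Idh1 was called at -0.20 ± 0.051 (adjusted p = 0.040), a call lost without any 1 of 9 arrays, with arrays centred on a common median and in a fit of only the 8 arrays compared.

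**Figure D5:**
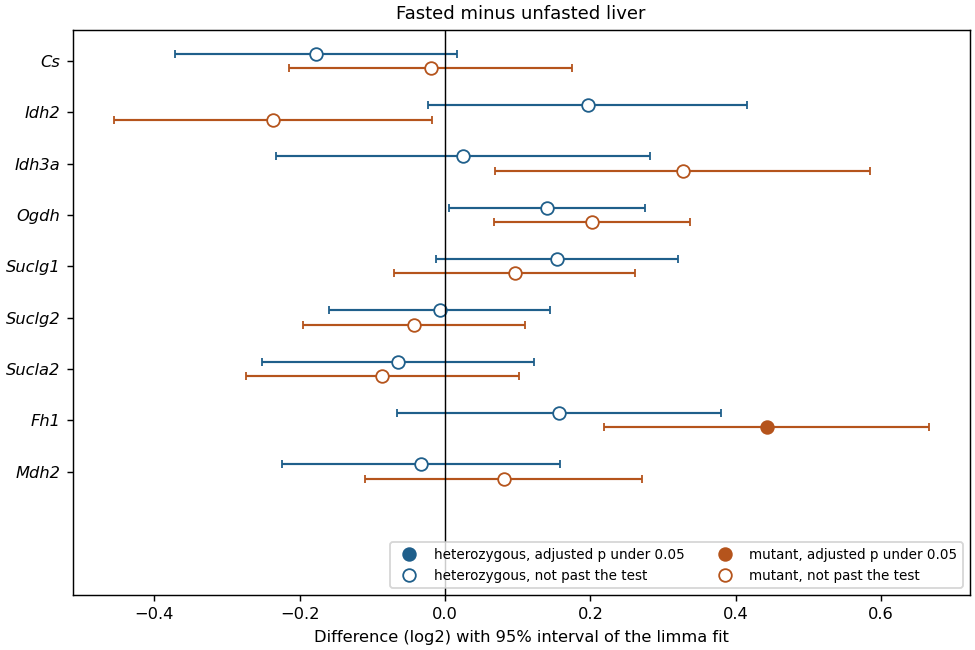
Difference between fasted and unfasted liver for each enzyme in log2 units, with the 95% interval of the limma fit, separately for heterozygous and mutant mice. Filled points have an adjusted p under 0.05. Fh1 in mutants is the 1 filled point, at 0.44. Idh2 lies at 0.20 in heterozygotes and -0.24 in mutants.

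Whether the response to the fast differed between genotypes was tested by the interaction, which called none of the 9 and 0.01% of all genes. In simulated data with 200 of 19938 genes changed, this test recovered 0% of changes of 0.25 and 72.5% of changes of 0.5. The lack of a call therefore does not show that smaller interactions are absent. The largest interaction among the 9 was that of Idh2 at -0.43 ± 0.15 (95% interval -0.74 to -0.12, adjusted p = 0.38). In the limma fit its unadjusted p was 0.0092, and the other 8 enzymes had unadjusted p above 0.05. Idh3a, at 0.30 ± 0.17, and Fh1, at 0.29 ± 0.15, had positive interactions that did not pass (adjusted p = 0.50 and 0.48). The call of Fh1 in mutants is therefore not shown to differ from heterozygotes.

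The genes nearest to each enzyme over the arrays were then looked up. Likeness was measured as the root mean square difference of log2 values over the 16 arrays, after each gene was centred on its own mean. No enzyme had another of the 9 among its 3 nearest genes. With so few enzymes among 19938 genes this cannot show whether they share a pattern. The nearest to Mdh2 were Fkbp1a at 0.084, Hspa9 at 0.093 and the matrix protease gene Pitrm1 at 0.096, where the median gene lay 0.28 away. The nearest to Idh2 were Myo1c at 0.16, St3gal6 at 0.17 and Mif at 0.17 (median gene 0.42), and the nearest to Cs were Rnf11, Tbl1x and Fbxl5 at 0.058 to 0.086 (median gene 0.22). For Idh3a the nearest were Bzw2, Lrrcc1 and Tnfrsf10b, for Fh1 Pot1a, Etfb and Cast, for Ogdh Cast, Osbpl1a and Eif3h, for Suclg1 Atxn1l, Vav2 and Cox7a2l, for Suclg2 Tmc3, Uqcrc2 and Larp4b, and for Sucla2 Psd3, Cyp2a12 and Hes2. Genes that vary little are near to many genes by this measure, and it says nothing of shared function. Among the 9 themselves the closest pair was Ogdh and Suclg1 at 0.094 and the most distant Idh2 and Sucla2 at 0.47.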

How the data were processed

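Total liver RNA was measured on Affymetrix Mouse Gene 1.0 ST arrays. The authors deposited log2 expression values made with Affymetrix Expression Console and RMA, per the submitters' processing notes; versions, build and filters are not given in the sources used here. The log2 scale was read from the range of 3.8 to 14.33. Of 35556 probe sets, 21789 have 1 gene symbol in the platform annotation, 1621 several and 12146 are unnamed here. A RefSeq gene table (GRCm38.p6) updated the symbols by their gene numbers and matched 21698. The brightest probe set per gene gave 19938 genes, with no filter on dim ones. No 2 arrays held identical values, and the labels give no batch or scan date.

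A limma model with a mean for each group took in all 16 arrays (limma 3.58.1, R 4.3.3; eBayes with an intensity trend, two-sided tests), with Benjamini-Hochberg adjustment across the whole table of genes. The 5 contrasts of genotype, fasting and their interaction and 1 mean of the 2 genotype contrasts make 6 comparisons. The number of arrays limits the precision. The fit was tested on simulated data. The enzymes, gene lists and alternatives were chosen with earlier results of these data known. The rule named all 9 enzymes, Mmut and up to 4 called genes per list and comparison; Sdhb, Sdhaf1, Idh3b, Sirt5, Me1 and Got1 were added after their values were seen. Replicate numbers were not used as pairs; the block is an alternative. Sox9 and Ms4a1 were also named after their values were seen. Promoter windows come from RefSeq.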

Additional observations from a re-analysis of the deposited data

Results flagged for a closer look

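In 148 sets of 4 arrays, 10 held 1 array far from the other 3 by Dixon's test; chance marks about 1 in 20. Among the 9 enzymes this was Idh3a in 2 groups. Fasted heterozygous replicate 3 read 10.48 against 10.01 to 10.07 in the other 3 arrays, above the lowest fasted mutant array, and unfasted mutant replicate 4 read 10.48 against 10.24 to 10.27 in the other 3 arrays. The same fasted heterozygous array was lowest for Acly, at 9.54 against 9.63 to 9.64 in the other 3 arrays, and highest for Got1, at 12.69 against 11.49 to 11.67 in the other 3 arrays. Acot4 was low in unfasted mutant replicate 4, at 11.06 against 11.69 to 11.81 in the other 3 arrays, and in fasted mutant replicate 2, at 11.50 against 11.78 to 11.80 in the other 3 arrays. Mmut was lowest in unfasted heterozygous replicate 2, at 9.66 against 9.86 to 9.89 in the other 3 arrays. The acinar genes stood out in unfasted mutant replicate 1, with Cpa1 at 12.29 against 7.05 to 7.13 in the other 3 arrays and Ctrb1 at 12.64 against 7.26 to 7.53 in the other 3 arrays. Ctrb1 was also highest in unfasted heterozygous replicate 1, at 7.57 against 7.32 to 7.36 in the other 3 arrays.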

How the results depend on the processing

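Of 1386 values of the 9 enzymes under alternatives, 1331 kept their direction and side of the threshold, 19 lost and 11 gained a call, and 25 uncalled values changed sign. No call turned direction. Most of the 1331 were uncalled in the main fit and stayed so, so the 19 lost calls came from a much smaller number of called values. The mean over probe sets could change the values of Suclg2 alone among the 9, and the stricter threshold could change no direction. Fitting only the 8 arrays compared left 1 enzyme unfasted, Idh2, and 0 for the fast in mutants. An adjusted p under 0.01 left 1 unfasted (Idh2), 2 fasted (Idh2 and Mdh2) and 0 for the fast in mutants. Leaving out 1 array gave 1 to 2 called enzymes unfasted, 2 to 4 fasted, 4 to 5 over both states and 0 to 2 for the fast in mutants, and 0 throughout for the fast in heterozygotes and for the interaction. The 1 unfasted was without heterozygous replicate 3 or 4 and the 2 fasted without fasted mutant replicate 2. With a replicate block, 2 enzymes were called unfasted, 4 fasted, 0 and 1 for the fast in heterozygotes and mutants, 0 for the interaction and 4 over both states, the same enzymes as without it. Among listed genes the block ended the calls of Idh1 and Aco1 over both states, Dlat fasted, Pdhb in heterozygotes and Idh1 and Tomm20 for the fast in mutants. Deviations of same-numbered arrays of different groups correlated at -0.12 to 0.25 (median 0.065, 9 of 24 pairs above 0.1), against a median of -0.032 and 9 of 72 for other numbers, and 8 of 16 arrays correlated best with their own number. By these measures same-numbered arrays were somewhat more alike than others. The rule for pairing asked for every pair above 0.1, which was not met, so the numbers were not used as pairs. Failing that rule does not show that the numbers share nothing, and a batch behind them was not tested.

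Over all genes 1584 were called unfasted, 2716 fasted, 313 and 667 for the fast in heterozygotes and mutants, 2 for the interaction and 4176 over both states. Only the arrays compared gave 764 unfasted, 568 and 33 for the fast. Array weights gave 1029 for the fast in heterozygotes. An adjusted p under 0.01 gave 461, 993, 73, 79, 0 and 2223 in the same order. Leaving out 1 array gave 698 to 1781, 1575 to 3180, 155 to 358, 224 to 1941, 0 to 6 and 3349 to 4387. For the fast in mutants the highest was without unfasted mutant replicate 1 and the lowest without fasted mutant replicate 2. The causes of these differences were not tested. The number of arrays and signal over background limit what could be called, and background was not given for these values.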
